A study of Mus musculus with 2 samples.

Results

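The aryl hydrocarbon receptor (AHR) pathway was followed in mouse osteosarcoma cells through 8 genes: the receptor Ahr, its partner Arnt, its repressor Ahrr, and the target genes Cyp1a1, Cyp1b1, Nqo1, Tiparp and Aldh3a1. Every probe set whose only gene symbol was one of these was taken, which gave 17 of 45037 non-control probe sets, for 8 of 18193 named genes. The set was chosen by the signal of Cyp1b1, which differs strongly between the cell lines, so the Cyp1b1 values below are a description and support nothing. RNA came from 2 cell lines, each hybridised to 1 Affymetrix mouse array. Dunn is the parental line, labelled non-metastatic, and LM8 is a subline of it, labelled highly metastatic. Both were cultured untreated in the same medium, which held 10% bovine serum and non-essential amino acids at 1%, and the labelling of each took 10 µg of total RNA. The labels name no added AHR ligand. With 1 array per line, no value has a replicate error and none could be tested, so every difference holds for these arrays only, whose number limits the precision.

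AHR is a transcription factor of the bHLH-PAS family that waits in the cytoplasm with HSP90 until it binds a planar aromatic ligand, such as a dioxin, a polycyclic aromatic hydrocarbon or a product of tryptophan. It then enters the nucleus, pairs with ARNT and binds xenobiotic response elements, whose core reads GCGTG. The genes it induces encode enzymes that oxidise, conjugate or reduce the ligand, together with feedback inhibitors, AHRR and TIPARP, that damp the receptor. In bone, AHR ligands are known to affect both osteoblasts and osteoclasts.

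The bases just before the start sites of the target and feedback genes are shown because AHR is known to act on its targets through this element. For each gene the 250 bases before the start are from RefSeq, build GRCm38.p6, written 5′ to 3′ on the gene's strand, with GCGTG on either strand in capitals (CACGC where the other strand holds it). Of the 8 genes, 6 matched an entry, and Ahr and Aldh3a1 are named only. Cyp1b1 is at chr17:79715062-79715311 on the minus strand, Cyp1a1 at chr9:57697363-57697612 on the plus strand, Ahrr at chr13:74292332-74292581 on the minus strand and Tiparp at chr3:65528197-65528446 on the plus strand.
Cyp1b1: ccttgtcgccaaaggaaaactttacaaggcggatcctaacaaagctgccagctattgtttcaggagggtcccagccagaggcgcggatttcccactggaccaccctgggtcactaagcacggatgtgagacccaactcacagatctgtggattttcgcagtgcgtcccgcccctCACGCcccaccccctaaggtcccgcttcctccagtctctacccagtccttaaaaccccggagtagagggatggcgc
Cyp1a1: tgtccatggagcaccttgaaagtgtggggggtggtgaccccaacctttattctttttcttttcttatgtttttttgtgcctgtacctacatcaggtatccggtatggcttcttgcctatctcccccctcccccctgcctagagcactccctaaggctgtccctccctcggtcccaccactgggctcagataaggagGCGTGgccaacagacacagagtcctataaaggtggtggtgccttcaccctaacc
Ahrr: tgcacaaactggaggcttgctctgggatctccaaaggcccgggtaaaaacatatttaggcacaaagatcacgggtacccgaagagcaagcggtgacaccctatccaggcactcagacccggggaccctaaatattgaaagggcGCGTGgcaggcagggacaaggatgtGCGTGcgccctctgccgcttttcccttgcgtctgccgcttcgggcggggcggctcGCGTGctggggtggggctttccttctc
Tiparp: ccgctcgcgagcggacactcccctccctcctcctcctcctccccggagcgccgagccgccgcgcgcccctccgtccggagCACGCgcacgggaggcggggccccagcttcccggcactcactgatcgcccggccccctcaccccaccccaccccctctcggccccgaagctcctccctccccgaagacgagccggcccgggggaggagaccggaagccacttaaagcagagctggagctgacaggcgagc
The Cyp1b1 window held 1 core, on the other strand, beginning 76 bases before the start. Cyp1a1 held 1 at 54 bases and Tiparp 1 at 170 bases. Ahrr held 3, at 107, 82 and 27 bases, and the last of these was part of the longer form TNGCGTG. Of the windows not shown, Arnt held 1 core and Nqo1 none. A core on either strand stood in 28.2% of 32851 mouse promoter windows of this length, and TNGCGTG, which contains it, in 4.10%. These matches are letters in a short window, and the known upstream enhancer of Cyp1a1 lies outside it.

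Cyp1b1 was the member that stood far lower in LM8. It encodes a cytochrome P450 that oxidises aromatic hydrocarbons, estradiol and retinoids, and unlike Cyp1a1 it is expressed in many mesenchymal cells without an added ligand. Probe set 1416612_at read a signal of 353 in Dunn and 15.0 in LM8. Probe set 1416613_at read 227 in Dunn and 0.853 in LM8. Both were well above the floor in Dunn and below it in LM8. The floor is the median signal of an array, 21.1 for Dunn and 19.0 for LM8, and a signal under it was set to it, so that such a fold is a lower bound only. Cyp1b1 was thus at least 18.6-fold lower in LM8 on the first probe set and at least 11.95-fold lower on the second. The remaining Cyp1b1 probe set, 1432081_at, was below the floor in both lines, with signals of 5.45 and 2.52.

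**Figure D1:**
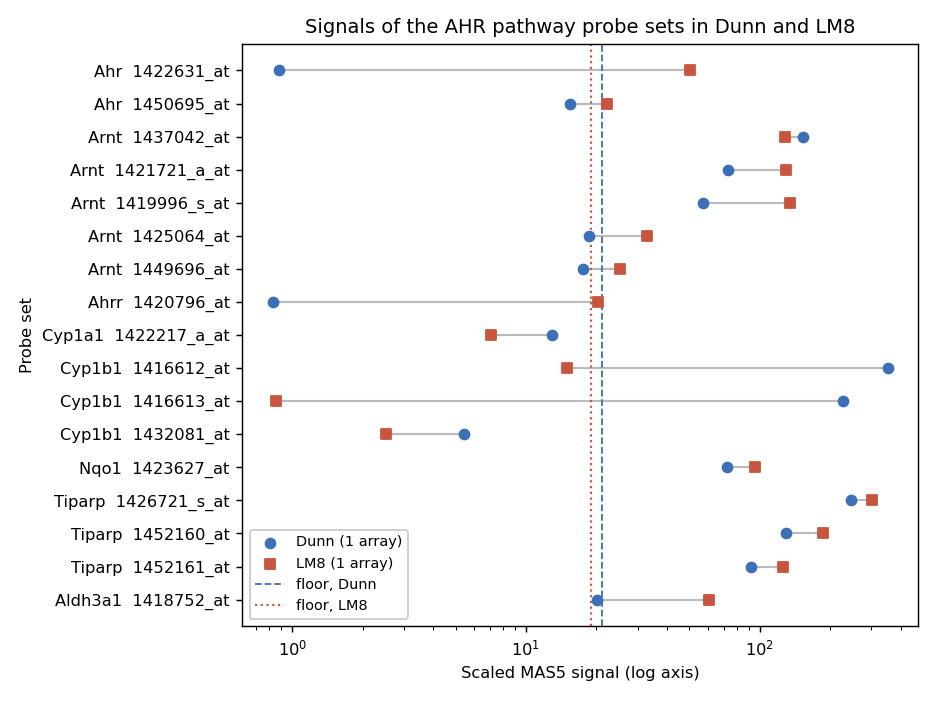
Scaled MAS5 signal (log axis) of each of the 17 AHR pathway probe sets in Dunn (circles) and LM8 (squares), 1 array per line, with the floor of each array as a vertical line. The brighter Cyp1b1 probe sets lie far above the floor in Dunn (353 and 227) and below it in LM8 (15.0 and 0.853). Most other probe sets are higher in LM8, but Cyp1a1, the dim Cyp1b1 probe set and the brightest of Arnt are lower. Those of Ahr and Aldh3a1 and the dimmer of Arnt passed the floor in LM8 alone, so the filter set their direction.

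The receptor gene Ahr passed the floor in LM8 alone, so it could only stand on the other side from Cyp1b1, and its direction is a description. Ahr probe set 1422631_at read 0.880 in Dunn and 50.2 in LM8, so Ahr was at least 2.38-fold higher in LM8 there. The other Ahr probe set, 1450695_at, read 15.4 in Dunn and 22.2 in LM8, a bound of 1.06-fold higher. Both Ahr probe sets were below the floor in Dunn and above it in LM8, but dim in LM8 as well. Ahr was therefore not detected above the floor in the line with the high Cyp1b1 signal.

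Arnt encodes the partner that AHR shares with the hypoxia-inducible factors, and it was above both floors on 3 of 5 probe sets. Probe set 1419996_s_at, of a type that can match more than 1 transcript, read 57.3 in Dunn and 134 in LM8, which is 2.34-fold higher. Probe set 1421721_a_at, which covers several Arnt transcripts, read 73.0 and 130.1, which is 1.78-fold higher. The brightest, 1437042_at, went the other way, with 153 in Dunn and 129 in LM8 and a log2 ratio of -0.25. The dimmer 1425064_at and 1449696_at read 18.6 and 17.6 in Dunn, below the floor, and 32.9 and 25.3 in LM8. These dim probe sets could only lie higher in LM8, since they passed the floor there alone. Of the 3 above both floors, the brightest was lower in LM8 and the others higher. The log2 ratios of Arnt spread with an SD of 0.56 over the 5, bounds included, against a median SD of 0.30 over 5521 genes with several measured probe sets, and the probe sets of Arnt do not give 1 common size.

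Ahrr encodes the repressor that competes with AHR for ARNT and is itself an AHR target. Its only probe set, 1420796_at, read 0.829 in Dunn and 20.4 in LM8. The LM8 signal was just above its own floor and under that of Dunn, so no fold is given. Tiparp encodes a mono-ADP-ribosyltransferase that also feeds back on AHR, and its 3 probe sets were above both floors. They read 247, 129.6 and 91.8 in Dunn and 301, 187 and 126 in LM8. The log2 ratios were 0.29, 0.53 and 0.46, with a mean of 0.42 and an SD of 0.12. The feedback gene Tiparp was thus slightly higher in LM8 on every probe set, none of them by 2-fold.

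Of the other enzyme genes among the targets, only Nqo1 was above the floor in Dunn, so only Nqo1 could have shown a drop. Cyp1a1, the P450 gene most used as a readout of ligand-bound AHR, was below the floor in both lines, with signals of 12.9 in Dunn and 7.11 in LM8, so no difference was detectable. Nqo1, which encodes a quinone reductase driven by both AHR and NRF2, read 72.1 in Dunn and 95.4 in LM8, a log2 ratio of 0.41. Aldh3a1, an aldehyde dehydrogenase gene of the AHR battery, read 20.1 in Dunn, under the floor, and 60.5 in LM8, so it was at least 2.87-fold higher. Cyp1b1 and Aldh3a1 therefore stood on opposite sides, but each passed the floor in 1 line alone, so the filter set both directions.

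Of the 17 probe sets, 15 were above the floor on at least 1 array and 14 gave a ratio. Among these, 3 stood 2-fold or more above Dunn in LM8 (1 each of Ahr, Arnt and Aldh3a1), 2 as far below it (both of Cyp1b1) and 9 lay between. Over all 25144 measured probe sets, 5.91% were 2-fold higher and 7.79% were 2-fold lower, and 45.5% had a log2 ratio above 0. With array medians set equal the higher and lower counts over all probe sets turned from 1485 and 1958 to 2102 and 1394, and with scaling on the hybridisation controls to 2569 and 1122. A dim member enters this count only through the line in which it is bright, as Ahr, Aldh3a1, Cyp1b1 and the dimmer Arnt probe sets did, so its direction is set by the filter and the counts are a description. The 7 member probe sets above both floors were 3 of Arnt, 3 of Tiparp and 1 of Nqo1, so they repeat the same few genes. Of these, 6 had a log2 ratio above 0 and 1 below, where 47.1% of all probe sets above both floors had one above 0. That share holds for the scaling used here and was not recomputed for the others.

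**Figure D2:**
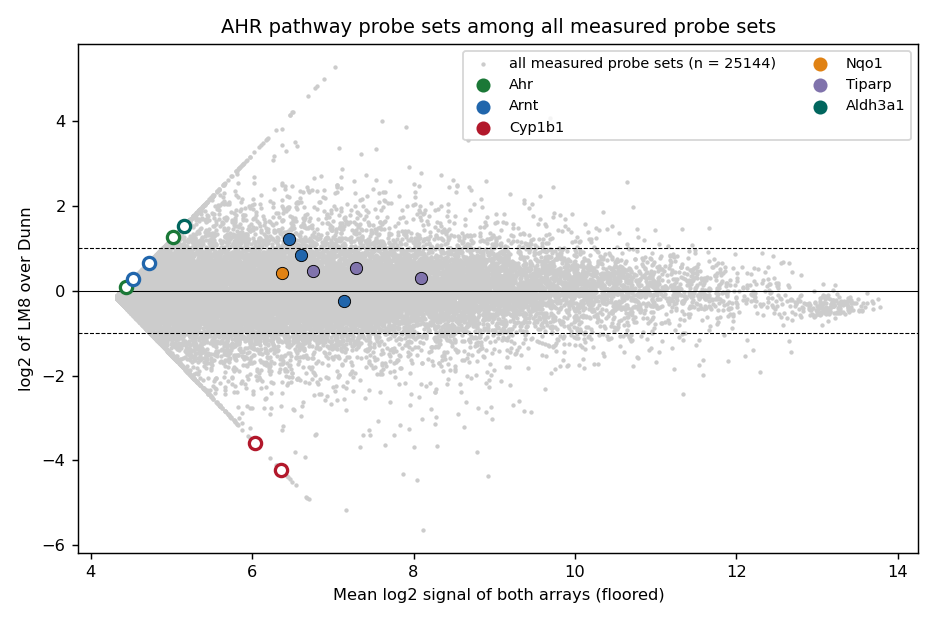
The log2 ratio of LM8 over Dunn against the mean log2 signal of both arrays for 25144 measured probe sets (grey), with the 14 AHR pathway probe sets that gave a ratio in colour. Open circles are lower bounds with an array at its floor, dashed lines mark 2-fold, and the Cyp1b1 probe sets lie at -4.22 and -3.58 while the others lie between -0.25 and 1.52.

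Each member kept the sign of its ratio under every scaling and floor under which it had one. A probe set with the same array at its floor could not change sign, since it was given no ratio on the other side. Arnt 1437042_at came to -0.004 with scaling on the hybridisation controls, which gives no direction. The brighter Cyp1b1 probe set ranged from -4.56 to -1.94 in log2 ratio and the dimmer from -8.05 to -1.30. Both stayed past 2-fold, and the smallest drops came with the floor at the 75th percentile of each array, where the bound is smaller by construction. Ahr, Aldh3a1 and the dimmer Arnt probe sets gave no ratio there, being below that floor in both lines, and Nqo1 gave none either. The 2-fold call of Arnt 1419996_s_at was lost with that floor (0.49) and with a pseudocount at the array median (0.97), and that of Aldh3a1 with the pseudocount (0.95). Arnt 1421721_a_at passed 2-fold with scaling on the hybridisation controls (1.08).

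**Figure D3:**
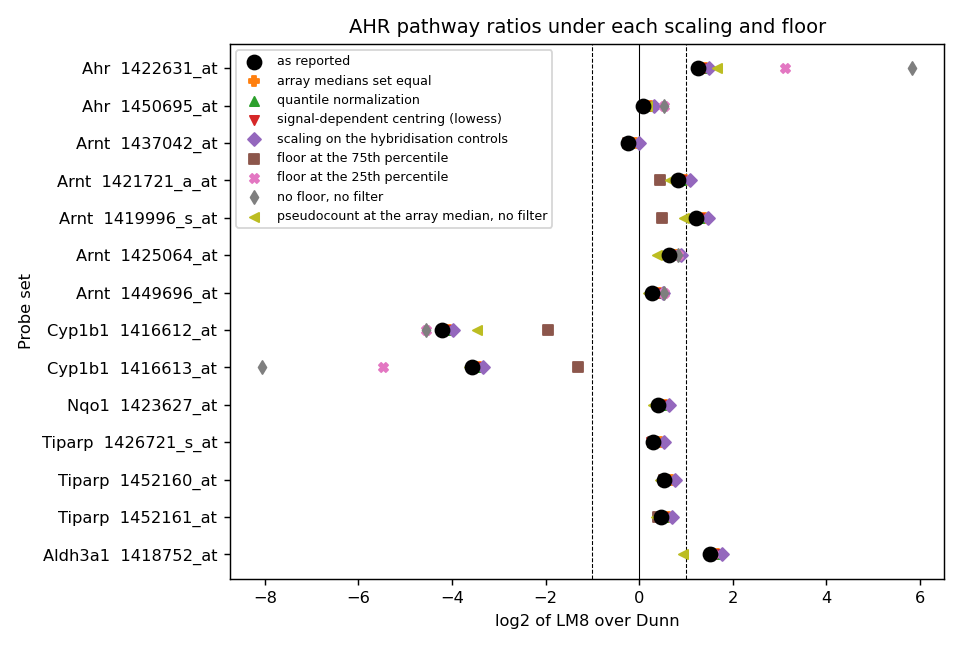
The log2 ratio of LM8 over Dunn for the 14 AHR pathway probe sets with a ratio, as reported (large black circles) and under 4 other scalings, 2 other floors, no floor and a pseudocount (coloured marks); dashed lines mark 2-fold. No member crosses 0, which a probe set with the same array at its floor cannot do, and Arnt 1437042_at comes to -0.004. The choice of floor moves Cyp1b1 and Ahr most, from -8.05 to -1.30 and from 1.25 to 5.83 on their widest probe sets.

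Genes around the pathway were taken from 10 lists that describe how AHR is held, paired, supplied with ligand and followed by other enzymes. Of 117 measured genes in all, 11 were 2-fold or more higher in LM8 and 13 lower, with a median log2 ratio of 0.00, where 6.51% of 11830 measured genes were 2-fold higher and 8.84% lower with a median of -0.08. With array medians set equal the counts were 14 and 11, and with scaling on the hybridisation controls 16 and 10. A gene took its brightest measured probe set.

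The proteins that hold AHR and help it activate genes showed small differences. Of 12 measured genes, 1 was 2-fold higher in LM8, none was lower and 11 lay between. Their median log2 ratio was 0.12. The higher one was Ncoa7, a nuclear receptor coactivator gene, at 57.4 in Dunn and 118 in LM8. Hsp90aa1, which encodes an HSP90 chaperone isoform, read 2748 and 4071, a log2 ratio of 0.57. The acetyltransferase genes Crebbp and Ep300 had log2 ratios of 0.50 and -0.65.

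Among 12 measured relatives of the bHLH-PAS family, 1 was 2-fold higher, 1 lower and 10 between. Their median was 0.40. Epas1, which encodes the hypoxia-inducible factor HIF-2 alpha and pairs with ARNT, read 278 in Dunn and 593 in LM8, which is 2.14-fold higher. Hif1a, which competes for the same partner, read 844 and 1292, a log2 ratio of 0.62, although its 4 probe sets ranged from -0.13 to 0.90. Hif3a was 2.08-fold lower, from 59.3 to 28.5. The median of this list was 0.18 with the probe sets of each gene averaged.

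Other genes reported to be induced through AHR were mostly dim. Of 19 with a probe set, 10 were below the floor in both lines, among them Cyp1a2, Cyp2s1, Serpinb2 and Ido1. Of the 9 measured, none was 2-fold higher in LM8, 2 were lower and 7 lay between. The lower ones were Aldh1a3, a retinaldehyde dehydrogenase gene, at 62.2 in Dunn and 10.2 in LM8 and so at least 3.28-fold lower, and the transcription factor gene Hes1, at 393 and 127. The median of -0.47 became 0.32 over 5 genes with the floor at the 75th percentile, so the list has no settled direction.

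Routes from tryptophan to AHR ligands gave 7 measured genes of 14, with 1 higher, none lower and 6 between. Ido1 and Tdo2, which open the kynurenine route, were below the floor in both lines. Kyat3, a kynurenine aminotransferase gene, read 63.2 in Dunn and 145 in LM8, which is 2.29-fold higher. The transporter gene Slc7a5, which brings in tryptophan, read 1259 and 1963. Slc3a2, the brightest gene of the list, went the other way, with 2553 in Dunn and 2054 in LM8. The list's median of -0.09 turned positive with array medians set equal (0.07).

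Among genes that supply P450 enzymes with electrons and haem, Por and Fdxr had no probe set named for them here and were not covered. The other 10 of the list were all measured, of which 1 was 2-fold higher, none lower and 9 between. Cyb5a, which encodes cytochrome b5, read 211 in Dunn and 427 in LM8, which is 2.02-fold higher, and Cyb5b read 837 and 1109. Alas1, which starts haem synthesis, had a log2 ratio of -0.10. The median of 0.38 became 0.04 with the probe sets of each gene averaged.

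The wider P450 family was mostly dim in both lines, with 55 of 71 genes below the floor on both arrays. Of 16 measured, 2 were 2-fold higher, 3 lower and 11 between. Their median of -0.12 became 0.03 with array medians set equal. Cyp27a1, a mitochondrial sterol hydroxylase gene, read 356 in Dunn and 34.0 in LM8 and was 10.5-fold lower, so Cyp1b1 was not the only P450 gene with a large drop. Cyp4f13 was at least 4.39-fold lower and Cyp4f16 2.53-fold lower, but the other Cyp4f16 probe set had a log2 ratio of -0.41. Cyp26a1, which breaks down retinoic acid, read 19.9 in Dunn and 188 in LM8 and was at least 8.92-fold higher. The sterol demethylase gene Cyp51 was 2.53-fold higher, and the log2 ratios of its 3 probe sets ranged from 0.40 to 1.48.

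Steps next to CYP1B1 in estrogen and retinoid metabolism and sensing gave 11 measured genes. A log2 ratio above 0 was found in 3, against 44.7% of all measured genes. Of the 11, 5 were 2-fold lower, 1 higher and 5 between, where 8.84% of all measured genes were 2-fold lower and 6.51% higher. Aldh1a3, Aldh1a2 and Esr1, on the probe set used, passed the floor in Dunn alone. The filter thus set their direction, and the counts are a description. The list's median of -0.39 stayed below 0 under each alternative. Dhrs3, a retinaldehyde reductase gene, read 95.7 in Dunn and 22.7 in LM8, which is 4.22-fold lower. The retinoic acid receptor gene Rara read 137 and 33.6, which is 4.08-fold lower. Stra6, a retinol transporter gene, was 2.12-fold lower, and Aldh1a3 is given above. Esr1, the estrogen receptor alpha gene, read 48.5 in Dunn and 3.36 in LM8 on the brighter probe set, a bound of 2.56-fold lower, but the other measured probe set had a log2 ratio of 0.36. Hsd17b1, which makes estradiol from estrone, was 3.10-fold higher, from 72.6 to 225.

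NRF2, the oxidant-sensing factor that shares Nqo1 as a target with AHR, had 23 measured genes in its list. Of these, 2 were 2-fold higher (Gclm and Slc7a11), 2 lower (Ephx1 and Gsta4) and 19 between, and the median was 0.14. The other measured probe set had a log2 ratio of 0.52 for Gclm and 0.09 for Slc7a11, short of 2-fold. Gsta4 was below the floor in LM8, so its fold is a bound. Ephx1 encodes the microsomal epoxide hydrolase that acts on epoxides made by P450 enzymes, and it read 704 in Dunn and 66.2 in LM8, which is 10.6-fold lower on its 1 probe set. Nfe2l2, the NRF2 gene itself, read 487 and 610.0, and its inhibitor gene Keap1 170.3 and 184. Txnrd1, a thioredoxin reductase gene, had a log2 ratio of 0.86, and the haem oxygenase gene Hmox1 one of 0.02. Nqo1, at 0.41, lay within the range of these targets.

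**Figure D4:**
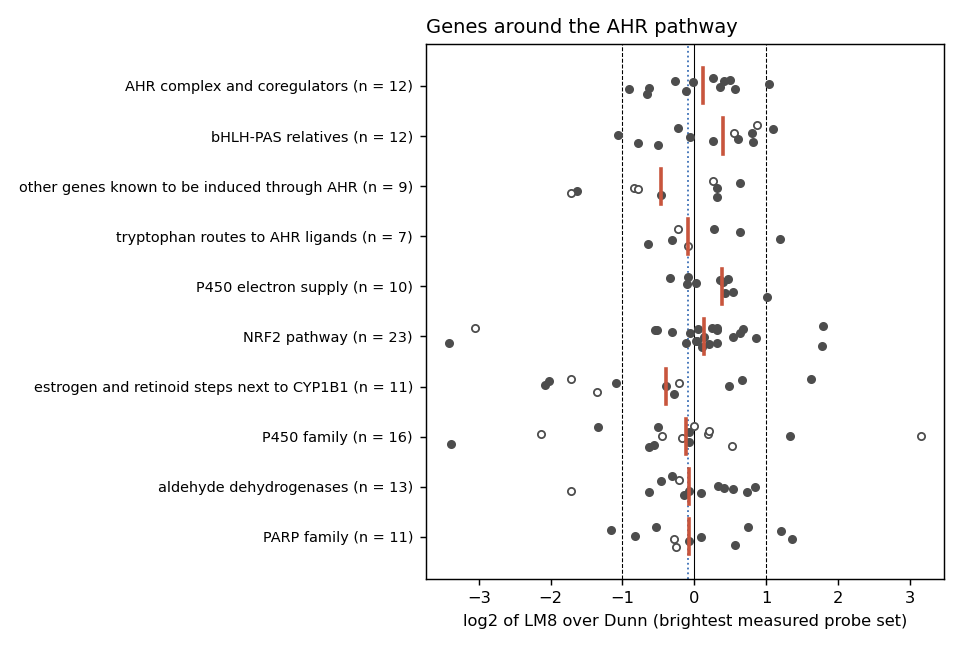
The log2 ratio of LM8 over Dunn for each measured gene of 10 lists around the AHR pathway, by its brightest measured probe set; open circles have an array at its floor, red bars are list medians, dashed lines mark 2-fold and the dotted line is the median of all genes (-0.08). Most genes lie within 2-fold. The estrogen and retinoid list has 5 of 11 genes past 2-fold lower, where 8.84% of all measured genes are. Aldh1a3 and Esr1, among these 5, are bounds whose direction the filter set.

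Genes of the whole array closest to Cyp1b1 in their pair of floored log2 signals were Maf, Pparg, Sorbs2, Fuca2 and Kng1, with distances from 0.10 for Maf to 0.63 for Kng1 over the 2 arrays. Maf, a bZIP transcription factor gene, read 329 in Dunn and 6.05 in LM8. Pparg, the adipocyte regulator gene, read 326 and 15.4, and Kng1, a kininogen gene, 229 and 1.96. Over 2 arrays such likeness says only that these genes were also bright in Dunn and dim in LM8.

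Cyp1b1 lies on chromosome 17, and of its 20 nearest neighbours with a probe set, 10 on each side, 13 were measured. None was 2-fold higher in LM8 and 3 were lower, with a median of -0.25. Over all 585 measured genes of chromosome 17 the median was -0.24, with 13.3% 2-fold lower and 3.25% higher. The adjacent genes Rmdn2 and Hnrnpll had log2 ratios of -0.88 and -0.09. The lower neighbours were Sult6b1, a sulfotransferase family gene (at least 6.55-fold), Galm, which encodes galactose mutarotase (3.86-fold), and Cdc42ep3, a CDC42 effector gene (2.52-fold). Cyp1b1 was the lowest of the stretch, but it was picked for its strong difference, so this rank is a description. Its neighbours were not uniformly low.

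**Figure D5:**
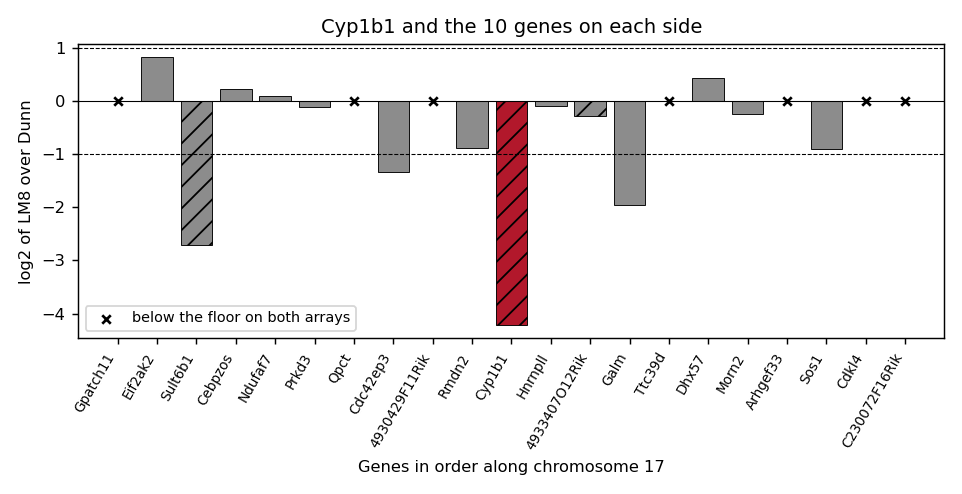
The log2 ratio of LM8 over Dunn for Cyp1b1 (red) and the 10 genes on each side that have a probe set, in their order along chromosome 17; hatched bars have an array at its floor, crosses are genes below the floor on both arrays and dashed lines mark 2-fold. Cyp1b1 stands at -4.22, Sult6b1 at -2.71 and Galm at -1.95, and Hnrnpll, next to Cyp1b1, at -0.09.

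The labelled cell type was checked on its markers. All 6 measured osteoblast lineage markers were above the floor in both lines, with Sp7, the osteoblast transcription factor gene, at 687 in Dunn and 743 in LM8. Of these 6, 1 was 2-fold lower in LM8, the bone sialoprotein gene Ibsp, at 239 and 96.6. Of other cell types, 3 of 5 leukocyte and macrophage markers, 2 of 5 epithelial, 1 of 4 endothelial and 1 of 3 hepatocyte markers were above the floor on at least 1 array. Their measured signals summed to 124, 66.0, 28.0 and 23.6 in Dunn and to 60.1, 51.6, 28.0 and 2.96 in LM8. The leukocyte gene Ptprc, the epithelial gene Cdh1, the endothelial gene Pecam1 and the hepatocyte gene Alb were below the floor in both lines. The leukocyte and macrophage, epithelial and hepatocyte sums were thus lower in LM8, as Cyp1b1 was. The leukocyte and macrophage sum was lower mainly through Csf1r (75.1 and 26.8 on its brightest probe set). The log2 ratios of the 3 Csf1r probe sets lay between -1.49 and 0.48, and the part of these cells in the result was not tested. Fewer cells of a type and less RNA per cell cannot be told apart in such bulk RNA.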

How the data were processed

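Each line gave 1 array of 45101 probe sets. The deposited values are linear intensities that, per the submitters' processing notes, the authors made with MAS5. Its version and settings are not given in the sources used here. Both deposited arrays have a 2% trimmed mean of 100.0. Detection calls were not used here.

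The 64 control probe sets were left out, and the arrays were put on a common 2% trimmed mean. Signals under the array median were set to it, and log2 ratios of LM8 over Dunn were taken. A difference was counted at 2-fold or more. Symbols came from the platform annotation, updated by gene identifier against GRCm38.p6: 34958 probe sets had 1 symbol, 932 several and 9160 non-control ones none, and 99.4% of identifiers matched. Members were taken by symbol as annotated. List genes were named if 2-fold apart or among the brightest of a list, and 5 genes by likeness to Cyp1b1. Genes named for comparison within a list beyond this, and the neighbours named, were picked with their values in view. The members and lists were chosen with earlier results of these data known.

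The steps were tested on simulated data in which changes were planted only in bright probe sets. That test does not cover members with an array at its floor. Alternatives were 4 scalings, 2 floors, no floor, a pseudocount, a 3-fold rule and averaged probe sets. Computation used scipy 1.17.1 and statsmodels 0.14.6 on tables read with pandas 2.3.3 and numpy 2.4.6 (Python 3.11.15), and plots matplotlib 3.10.9.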

Additional observations from a re-analysis of the deposited data

How the results depend on the processing

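Of 106 recomputed member ratios, 91 moved by less than 0.30 in log2 (the median SD over probe sets of 1 gene) and 15 by more. None changed sign, though a ratio with the same array at its floor could not. The 2 member probe sets 2-fold lower in LM8, both of Cyp1b1, stayed 2 under each alternative but 1: with no floor they were 3, the addition being the dim probe set 1432081_at of the same gene. The 3 that were 2-fold higher became 0 under a floor at the 75th percentile, 1 with the pseudocount and 0 at 3-fold, and 4 with the floor at the 25th percentile, with no floor and with scaling on the hybridisation controls. The 11 list genes 2-fold higher and 13 lower became 6 and 3 of 75 with that higher floor, 22 and 26 of 180 with the floor at the 25th, 33 and 43 of 204 with no floor, and 4 and 8 at 3-fold. Fewer or more genes are measured under other floors. Scaling on 12 hybridisation controls, whose mean log2 ratio was -0.24, moved the median of all probe sets from -0.07 to 0.18, and array medians set equal moved it to 0.08. No paired analysis was possible because each line has 1 array.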

Other observations

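Relatives of the targets Tiparp and Aldh3a1 were also read. Of 11 measured PARP family genes, 2 were 2-fold higher in LM8, 1 lower and 8 between. Their median log2 ratio of -0.07 became 0.08 with array medians set equal. Parp2, a DNA repair gene, read 130 in Dunn and 333 in LM8, which is 2.57-fold higher, and Parp9, an interferon-inducible gene, was 2.32-fold higher. Parp3 was 2.24-fold lower, and its 3 probe sets ranged from -1.32 to -0.89. Of 13 measured aldehyde dehydrogenase genes, none was 2-fold higher, Aldh1a3 was lower and 12 lay between. Their median of -0.08 became 0.07 with array medians set equal. Aldh3a2, of the same subfamily as Aldh3a1, read 84.3 in Dunn and 123 in LM8, a log2 ratio of 0.54. The mitochondrial gene Aldh2 had one of -0.14.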
